A study of Rattus norvegicus with 3 samples.

Results

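GABAergic lineage cells are the cells of the embryonic forebrain that make, or are on the way to making, the inhibitory transmitter GABA. They were chosen from dissociated cortex cells of wild-type rat embryos, profiled by 10x Genomics 3′ single-cell RNA sequencing in 3 libraries that the submitters labelled E14, E16 and E18 for the embryonic day. Each label has 1 library, and the number of embryos per library and the strain are not given in the sources used here. The protocol text also describes expansion cultures, oligo tagging, freezing and a sort for live human cells, and does not say which steps these cells went through. A barcode was kept if it had 1000 or more genes and a mitochondrial share of no more than 10%. A kept cell was a member if at least 2 of the genes Dlx1, Dlx2, Dlx5, Dlx6os1 and Gad2 each had at least 2 unique molecular identifiers (UMIs, counts of captured RNA molecules), and if Neurod2 and Neurod6 together had at most 2. Members with at least 2 UMIs of Top2a and Mki67 together were called cycling, and the others postmitotic. The symbol Dlx6os1 is not among the 29772 genes of the files, so 4 of the 5 rule genes could count. In all, 192 of 15327 kept cells were members, of which 151 were postmitotic and 41 cycling.

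GABAergic neurons of the forebrain are born mainly outside the cortex, in the ganglionic eminences of the ventral telencephalon. The DLX homeodomain factors act there downstream of GSX2 and switch on the GABA-making enzymes GAD1 and GAD2. Cells from the medial eminence carry Lhx6 and give somatostatin and parvalbumin interneurons, cells from the caudal eminence carry Nr2f2 and Prox1, and cells from the lateral eminence and septum express Isl1, Six3 or Meis2 and give striatal, septal and olfactory neurons. Interneurons bound for the cortex migrate tangentially and read the chemokine CXCL12 through CXCR4 and ACKR3.

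The libraries held 7100, 6707 and 6937 barcodes in label order, and 4444, 5193 and 5690 were kept. Among other kept cells, 3601, 488 and 2621 were excitatory-type (at least 3 UMIs of Neurod2 and Neurod6, no rule gene at 2 UMIs, not cycling), and 158, 2305 and 1080 were cycling pallial cells (at least 2 UMIs of Emx1, Emx2 and Eomes together). Some stage genes went against the order of the labels. Hmga2, which is high in young neural progenitors, was at 11.1, 222.5 and 23.0 CPM (a gene's UMIs per 1000000 of the sum) in the cycling pallial cells of the libraries labelled E14, E16 and E18. In the same cells Igf2bp2, another early gene, was at 33.7, 143.5 and 88.1 CPM, and Nfix, a late one, at 295.3, 66.8 and 264.6 CPM. Not all did so: Nfia, also late, was at 587.1, 1525 and 1953 CPM in excitatory-type cells. The library labelled E16 stood apart in the first 3, so no course over time is read from the labels. Each pair of libraries shared 12 to 17 barcode sequences, and none was a member in both.

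The share of members was highest in the library labelled E16. It was 1.01% in the library labelled E14 (45 of 4444 cells, exact Clopper-Pearson 95% interval 0.740% to 1.35%), 1.91% in that labelled E16 (99 of 5193, 1.55% to 2.32%) and 0.844% in that labelled E18 (48 of 5690, 0.623% to 1.12%). The interval of E16 lay above both others, and those of E14 and E18 overlapped. These intervals cover counting error only, and dissection, which sets how much ventral tissue a sample holds, cannot be told apart from age with 1 library per label. Members were shallower than other kept cells, with median UMI counts of 6245, 8281 and 5785.5 against 11492, 12572 and 10727.5. Their median mitochondrial share was higher, at 8.04%, 5.71% and 7.73% against 6.93%, 3.94% and 5.03%.

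Members also differed in how many were dividing. Of the 99 members labelled E16, 36 were cycling, a share of 36.4% (26.9% to 46.6%). By comparison 3 of 45 were cycling under the label E14, or 6.67% (1.40% to 18.3%), and 2 of 48 under E18, or 4.17% (0.509% to 14.3%). With every cell thinned to 4000 UMIs, cycling shares were 3.12%, 30.6% and 0% in label order. The share of members among kept cells was then 0.740%, 1.43% and 0.596%. With a mitochondrial maximum of 5% in place of 10% it was 0.545%, 1.00% and 0.0360%, from 2, 39 and 1 members.

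**Figure D1:**
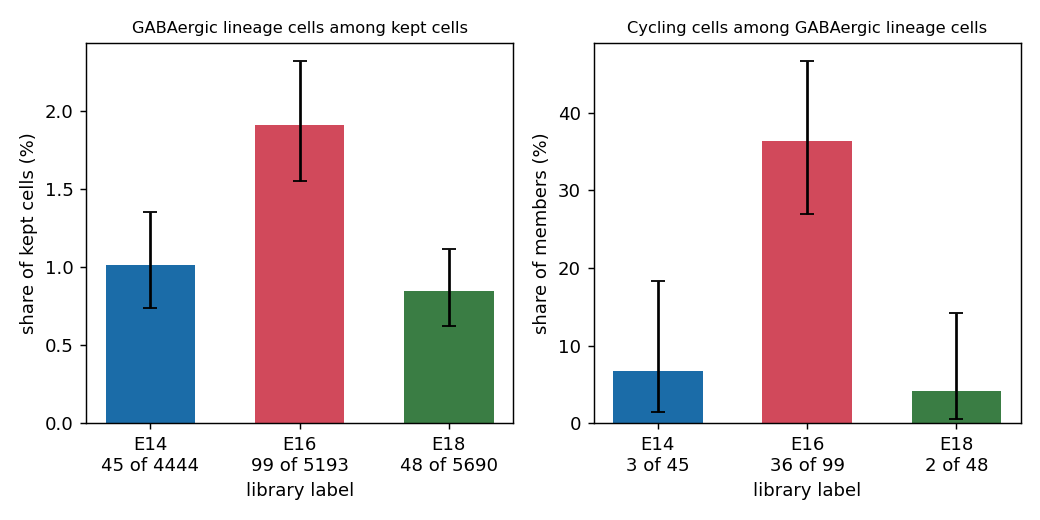
Left, GABAergic lineage cells as a percentage of kept cells in each library, and right, cycling cells as a percentage of those members, with counts under each bar and exact 95% binomial intervals as error bars (counting error only, 1 library per label). The library labelled E16 has the highest bar in both panels, at 1.91% and 36.4%.

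The rule genes describe how the members were chosen and are given with no test. Dlx1, a homeodomain factor of the ventral telencephalon, was at 1193, 823.1 and 762.8 CPM in postmitotic members in label order, and Gad2, one of the enzymes that make GABA, at 664.1, 693.7 and 615.2 CPM. Dlx2 was at 347.5, 231.2 and 219.5 CPM, and Dlx5 at 189.2, 239.1 and 147.5 CPM. Just inside the rule, 19, 37 and 29 members had exactly 2 rule genes, and just outside it, 11, 64 and 29 kept cells with at most 2 UMIs of Neurod2 and Neurod6 had exactly 1. Of cells with 2 or more rule genes, 1 in each library was left out with 3 to 5 UMIs of Neurod2 and Neurod6, and 7, 1 and 7 with more. All 99 members labelled E16 had no UMI of those genes, while 19 of 45 labelled E14 had 1 or 2.

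The markers given for this lineage that the rule did not use were present, unevenly. Gad1, the other GABA-making enzyme, had UMIs in 15 of 42, 29 of 63 and 17 of 46 postmitotic members. Lhx6 had UMIs in 7, 1 and 20 of them. Markers of several other cell types were at or near 0. In the sums over postmitotic members, 4 of 5, 5 of 5 and 4 of 5 endothelial markers were at 0, as were 4 of 4, 3 of 4 and 4 of 4 microglial and 14 of 15, 12 of 15 and 14 of 15 markers of regions outside the telencephalon. Their summed levels were at most 3.86, 1.96 and 45.1 CPM. The last value, in the library labelled E16, came mostly from Otx2 at 35.3 CPM. Ttr, the leading choroid plexus transcript, was at 0, 66.6 and 129.5 CPM against 0.0452, 28.8 and 49.2 CPM in excitatory-type cells, and Folr1 was at 0 in all 3 sums. Other lists were higher. The 8 erythroid genes summed to 131.3, 303.8 and 273.4 CPM in postmitotic members and 773.5, 2792 and 1033 CPM in excitatory-type cells. The 4 Cajal-Retzius genes summed to 61.8, 80.3 and 28.8 CPM against 8.02, 485.5 and 89.7 CPM, so that members were above excitatory-type cells in E14 and below them in the others. The part of these markers in the results was not tested.

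To see what else postmitotic members share, their summed UMIs were set against those of postmitotic excitatory-type cells of the same library, with the library as a block, by edgeR's quasi-likelihood test. The genes of either rule were left out. Genes expressed along with them were not, so folds of other GABAergic and excitatory genes follow in part from how the classes were chosen. Most tested genes of the GABA handling and GABAergic regulator lists were higher in members, and most of the pallial list lower. At an adjusted p under 0.05, 102 of 10357 genes were higher (0.985%) and 185 lower (1.79%). The median log2 fold over all genes tested was -0.03.

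Of the GABA handling list, 4 of 5 tested genes of 7 were higher and none lower. Slc32a1, the transporter that loads GABA into synaptic vesicles, was at 158.3, 70.6 and 154.7 CPM in members and at most 0.339 CPM in excitatory-type cells, a log2 fold of 9.39 ± 0.45 (SE, edgeR adjusted p = 4.18e-05). Gad1 was at 69.5, 82.3 and 79.2 CPM against at most 0.452 CPM, a log2 fold of 8.04 ± 0.56 (edgeR adjusted p = 0.000252). The counting intervals of its 3 levels in members overlapped. Abat, which breaks GABA down, was higher by 3.50 ± 0.65 (edgeR adjusted p = 0.0275). Without the library labelled E14 the adjusted p of Abat was 0.256, and without that labelled E16 it was 0.0888.

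Among regulators, 4 of 6 tested genes of 10 were higher. Dlx6, the chromosomal neighbour of Dlx5, was at 46.3, 119.5 and 25.2 CPM and higher by 8.76 ± 0.62 (edgeR adjusted p = 0.000267). Pbx3, a TALE homeodomain factor, was higher by 3.24 ± 0.66 (edgeR adjusted p = 0.042), with an adjusted p of 0.146 without the library labelled E18 and 0.106 without cells of high doublet score.

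The unnamed noncoding locus LOC100912227, which encloses Dlx6 in the RefSeq gene table, was at 1525, 1713 and 1144 CPM in members and at most 2.42 CPM in excitatory-type cells, a log2 fold of 10.24 ± 0.46 (edgeR adjusted p = 4.18e-05). It was singled out after its values were seen. Whether it is the gene that the rule calls Dlx6os1 is not given in the sources used here, nor is how the counting assigned reads where it and Dlx6 overlap, so the split between them is uncertain. Counting it as the fifth rule gene gave 52, 113 and 70 members in place of 45, 99 and 48. LOC108350393, a locus beside Dlx1 and Dlx2 in that table, was at 150.6, 68.6 and 79.2 CPM against at most 0.655 CPM.

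The interneuron, caudal and migration lists held genes at very different levels between the libraries, and part of each was called. Of 7 tested genes of the 11 linked to the medial eminence and interneurons, Maf, Nxph1, Lhx6 and Sox6 were higher. Maf, a transcription factor of medial eminence interneurons, had a log2 fold of 7.46 ± 0.78 (edgeR adjusted p = 0.00194) and Lhx6 one of 7.12 ± 0.87 (edgeR adjusted p = 0.00389). Adarb2, a marker of caudal eminence interneurons, was higher by 7.29 ± 0.77, and Erbb4, the neuregulin receptor of migrating interneurons, by 7.26 ± 1.02 (edgeR adjusted p = 0.00804). Without the library labelled E14 the adjusted p was 0.0992 for Adarb2, 0.144 for Erbb4 and 0.0644 for Nxph1. Only 1 of 9 tested migration genes was called. Of 6 tested lateral eminence and striatal genes of 13, Six3 was higher by 6.09 ± 1.02 (edgeR adjusted p = 0.0179), and its adjusted p was 0.0524 without the library labelled E14.

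Of the pallial list, 12 of 14 tested genes of 15 were lower and none higher. The median log2 fold was -4.02 when genes with no UMI in members are put at their bound. Both classes were chosen by Neurod2 and Neurod6, so lower genes of excitatory neurons were in large part set by that choice. Slc17a6 and Slc17a7, the vesicular glutamate transporters, had 0 UMIs in all 3 sums of postmitotic members. Against a floor of 3 UMIs over those sums they were at least 31.6-fold and 17.7-fold lower. Tbr1, a factor of deep-layer excitatory neurons, was at 7.72, 5.88 and 0 CPM against 145.4, 533.1 and 316.1 CPM, and it fell by 6.26 ± 0.45 on the log2 scale (edgeR adjusted p = 0.00028). Bhlhe22, another factor of excitatory neurons, fell by 5.69 ± 0.29 on that scale (edgeR adjusted p = 4.53e-05). Slc17a6 was not called by DESeq2, with an adjusted p of 0.0644.

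Pax6 was not called, at 42.5, 258.7 and 68.4 CPM in members against 29.0, 40.5 and 50.1 CPM. Sox2, a gene of neural progenitors, was higher in postmitotic members, at 505.8, 184.2 and 500.1 CPM against 21.8, 23.8 and 38.7 CPM, a log2 fold of 3.74 ± 0.29 (edgeR adjusted p = 0.000415). It was the only gene of the 13 on the progenitor list that was higher, and Insm1 was lower, a call lost without the library labelled E14 (edgeR adjusted p = 0.326) or E18 (0.107). The 8 tested GABA receptor and chloride transporter genes had log2 folds on both sides of 0, with a median of 0.18. Gabra2, a subunit of the ionotropic receptor, was at 46.3, 17.6 and 39.6 CPM against 10.4, 22.3 and 12.8 CPM. Nfix, a nuclear factor that rises late in neurogenesis, was at 123.6, 7.84 and 21.6 CPM against 688.9, 124.6 and 472.0 CPM, and fell by 3.36 ± 0.34 on the log2 scale (edgeR adjusted p = 0.00166). Of 5 tested early-response genes, which dissociation can raise, Ier2 was lower by 1.42 ± 0.30 on the log2 scale and lost its call without the library labelled E14 or E18 (edgeR adjusted p = 0.241 and 0.152).

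Among named genes outside the lists, the largest fold was that of Pnoc, which encodes the neuropeptide precursor of nociceptin. It was at 127.4, 152.9 and 10.8 CPM in members and at most 0.417 CPM in excitatory-type cells, a log2 fold of 9.58 ± 0.50 (edgeR adjusted p = 4.53e-05). Next came Neto1, Pls3, Nrxn3, Sox1, Wls, Wnt7a and Spats2l, with log2 folds from 7.05 to 3.27. Of these, Pls3, Nrxn3, Wls and Spats2l were not called without the library labelled E14, with edgeR adjusted p of 0.200, 0.116, 0.206 and 0.0524, nor Wls without that labelled E18 (0.0545). At the other end were Nhlh1, Cacna2d1 and Cabp1, which had no UMI in members and were at least 31.3-fold, 23.0-fold and 18.0-fold lower. Nhlh1 was not called by DESeq2 (adjusted p = 0.0921).

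**Figure D2:**
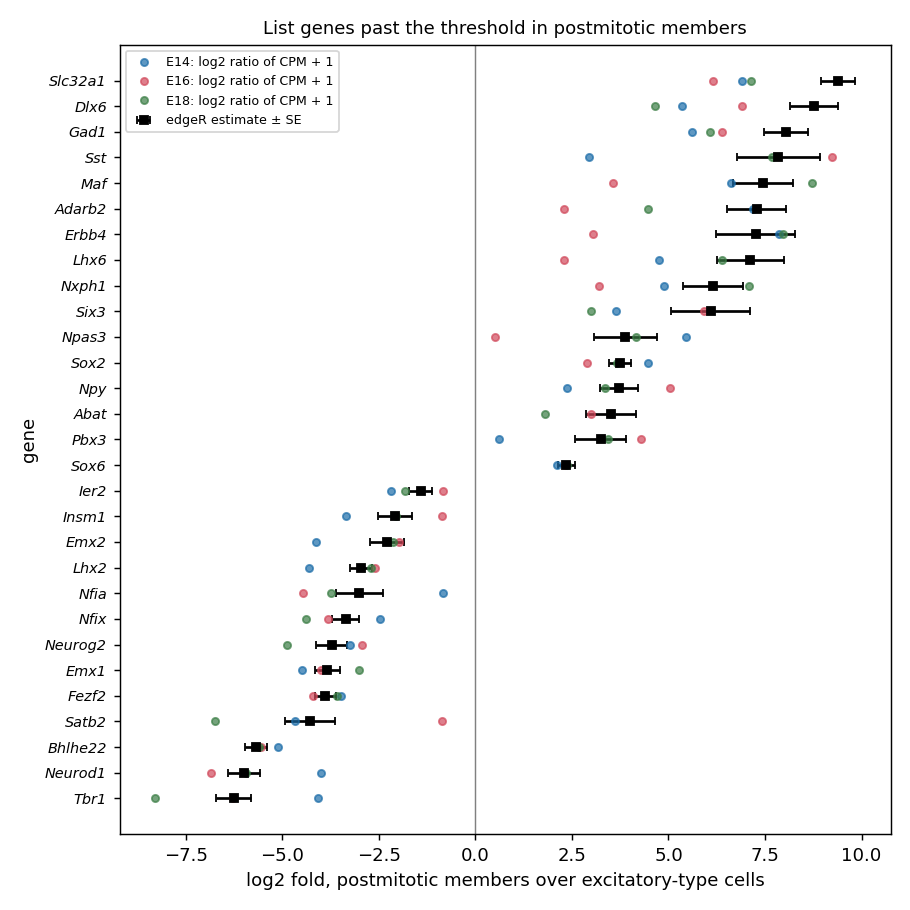
List genes past the threshold in postmitotic members against excitatory-type cells, ordered by log2 fold, without genes that had 3 or fewer UMIs in members and without list genes not reported here: black squares are edgeR estimates with SE, and coloured points the log2 ratio of CPM + 1 in each library, which lies closer to 0 for genes with few UMIs. Of the genes drawn, Slc32a1 is at the top with 9.39 and Tbr1 at the bottom with -6.26.

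The peptide genes Sst and Npy were called, and few cells carried them. Sst, the somatostatin gene, was at 15.4, 601.6 and 327.4 CPM in postmitotic members, from 1, 2 and 12 cells, and 1 cell labelled E16 alone held 200 UMIs. Its log2 fold over excitatory-type cells was 7.85 ± 1.08 (edgeR adjusted p = 0.0071). Npy was at 77.2, 197.9 and 125.9 CPM from 7, 2 and 19 cells, with a log2 fold of 3.71 ± 0.49 (edgeR adjusted p = 0.00617). Both cells with Sst in the library labelled E16 also had Npy, as did 7 of the 12 labelled E18. Pvalb and Vip, which mark interneurons at later ages, had 0 UMIs in all 3 sums.

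The upstream sequences of the called genes were searched for TAATTA, a core motif of homeodomain factors such as the DLX proteins. RefSeq windows of 250 bases before the annotated start (build GRCr8) were matched for 20 of 31 genes searched among those higher in postmitotic members, the 3 unnamed loci included. The motif, which reads the same on both strands, was in 4 of them (Sst, Sox6, LOC100912227 and LOC108350393) and in 4.86% of all 33469 windows. Among matched genes of all lists, higher in members or not, it was in 7 of 100, and among matched rule genes in 0 of 2. The cyclic AMP response element TGACGTCA, searched likewise, was in none of the 20 and in 1.59% of all. The windows of Sst (chr11:90461296-90461545, plus strand), Sox6 (chr1:179665372-179665621, minus strand) and LOC100912227 (chr4:35959460-35959709, minus strand) are shown because these genes were higher in members. They are written 5′ to 3′ with the TAATTA match in capitals, and a match is a description of letters, not a site of binding.
Sst: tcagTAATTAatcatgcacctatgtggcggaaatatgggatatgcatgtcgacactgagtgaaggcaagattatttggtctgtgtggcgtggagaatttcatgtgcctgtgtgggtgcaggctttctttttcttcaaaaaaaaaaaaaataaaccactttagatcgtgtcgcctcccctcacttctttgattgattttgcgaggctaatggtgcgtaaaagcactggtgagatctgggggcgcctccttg
Sox6: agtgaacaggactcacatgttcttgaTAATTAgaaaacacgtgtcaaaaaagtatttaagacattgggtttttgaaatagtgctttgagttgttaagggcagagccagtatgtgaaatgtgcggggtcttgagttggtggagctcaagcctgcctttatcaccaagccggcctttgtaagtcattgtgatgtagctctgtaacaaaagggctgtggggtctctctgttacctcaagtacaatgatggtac
LOC100912227: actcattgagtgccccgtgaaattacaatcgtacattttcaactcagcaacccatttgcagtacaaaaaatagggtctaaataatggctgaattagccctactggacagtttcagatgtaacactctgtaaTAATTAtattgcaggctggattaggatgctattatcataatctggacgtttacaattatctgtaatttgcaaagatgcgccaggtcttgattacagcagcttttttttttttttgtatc

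The regional genes of postmitotic members differed between libraries. Among the genes described here, Nr2f2, Htr3a and Cck were highest in E14, Maf, Lhx6 and Nxph1 in E18, and Isl1, Six3, Meis2 and Zic genes in E16. With 1 library per label no test was possible. Values are CPM of summed UMIs with exact Poisson 95% intervals, which cover counting error only, and genes were compared at a mean of at least 25 CPM, so that a list gene could pass through 1 high library. Of 5025 such genes, 7.3% were 2-fold or more higher in E16 than E14 and 12.9% lower, 6.19% and 5.83% were so in E18 over E14, and 11.8% and 6.87% in E18 over E16.

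Of the interneuron list, 8 of 11 genes passed the minimum, of which 7 were 2-fold or more lower in E16 than E14 and 7 higher in E18 than E16, with medians at the floor of -3.17 and 3.21 on the log2 scale. Maf was at 559.9 CPM (472.4 to 658.8) in E14, 33.3 (19.4 to 53.3) in E16 and 1702 (1552 to 1862) in E18. The 3 intervals did not overlap. It had UMIs in 23 of 42, 4 of 63 and 42 of 46 cells. Lhx6 was at 50.2, 3.92 and 101 CPM, and Nxph1, a synaptic adhesion ligand of interneurons, at 81.1, 27.4 and 255.5 CPM. Npas1, another interneuron factor, was at 92.7 CPM in E14 and had no UMI in E16, at least 15.8-fold lower against a floor of 3 UMIs per library. That floor is used for every such bound between libraries. Npas1 passed the minimum through E14 alone.

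Of the migration list, 7 of 10 genes passed the minimum, of which 3 were 2-fold or more lower in E16 than E14 and 5 higher in E18 than E16. Cxcr4, the CXCL12 receptor, was at 158.3 and 241.1 CPM in E14 and E18, from 25 and 30 cells, and had 0 UMIs in the 63 cells labelled E16, at least 26.9-fold and 41.0-fold lower than in the others. Ackr3, which clears CXCL12, was at 92.7, 1.96 and 165.5 CPM, and Erbb4 at 710.4, 56.8 and 726.8 CPM. Others of the list were not lower in E16: the axon guidance receptor Robo1 was at 69.5, 82.3 and 72.0 CPM and Nrp2, a semaphorin receptor, at 50.2, 70.6 and 64.8 CPM. Dcx, a microtubule protein of all migrating neurons, was at 787.7, 433.1 and 1011 CPM and had UMIs in 42 of 42, 54 of 63 and 45 of 46 cells. In the excitatory-type cells, Cxcr4 was at 1.90, 17.9 and 5.31 CPM.

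The caudal eminence genes that passed the minimum were highest in the library labelled E14. Nr2f2, an orphan nuclear receptor, was at 359.1 CPM (289.8 to 439.9) in E14, 1.96 (0.0496 to 10.9) in E16 and 61.2 (35.6 to 97.9) in E18. Prox1 was at 81.1, 3.92 and 0 CPM, and Htr3a, a serotonin-gated channel of caudal interneurons, at 108.1, 1.96 and 3.60 CPM. Cck, the cholecystokinin gene, was at 880.3 CPM in E14 from 24 of 42 cells and at 10.8 CPM in E18 from 2 of 46, and had 0 UMIs in E16, at least 150-fold lower than in E14. Of this list, 6 of 7 genes passed the minimum, and all 6 were 2-fold or more lower in E16 than in E14 and 4 in E18. Prox1 and Htr3a passed it through E14 alone, so these counts follow in part from the minimum.

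Lhx6 and Nr2f2 were not found together in the library labelled E14. None of its 7 cells with Lhx6 had Nr2f2, which 25 of 42 cells had, and 10 of the 11 cells with Prox1 had Nr2f2. Maf had UMIs in 23 of the 42 cells, so that it shared cells with Nr2f2. Under the label E18, all 20 cells with Lhx6 also had Erbb4 and Maf, 8 had Sst and 4 had Nr2f2. These counts depend on depth, since a gene with few UMIs is missed in many cells that express it.

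Of the lateral eminence and striatal list, 6 of 13 genes passed the minimum, of which 4 were 2-fold or more higher in E16 than E14 and 1 lower. Isl1 and Six3 passed it through E16 alone, so these counts follow in part from the minimum. Isl1, a LIM homeodomain factor of striatal projection neurons, was at 221.4 CPM (182.5 to 266.2) from 33 of 63 cells, against 0 UMIs in E14 and 3.60 CPM from 1 cell in E18, and was at least 19.1-fold higher than in E14. Six3 was at 11.6, 98.0 and 14.4 CPM and Meis2 at 30.9, 205.8 and 57.6 CPM. Of the 23 cells with Six3 in E16, 19 had Isl1. Ebf1, Rarb, Ikzf1 and Penk, further genes of the striatal list, had 0 UMIs in all 3 sums, and Foxp1 was at 158.3, 31.4 and 14.4 CPM, with 33 of its 41 UMIs in E14 from 1 cell. In E18, 10 of 16 UMIs of Meis2 came from the deepest cell, and the level without it was 23.4 CPM.

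Zic2, Zic4 and Zic5, zinc finger genes of the septum and midline, were at 188.1, 215.6 and 192.1 CPM in E16 and had no UMI in E14. Excitatory-type cells were also highest in E16, with Zic2 at 0.723, 30.0 and 4.19 CPM, Zic4 at 0.859, 12.1 and 6.57 CPM and Zic5 at 0.701, 20.2 and 3.93 CPM in label order. In E18 members they were at 25.2, 46.8 and 25.2 CPM from 2, 2 and 3 cells. Dcc, a netrin receptor, was at 0, 209.7 and 50.4 CPM, while excitatory-type cells had it in every library at 49.3, 178.6 and 153.6 CPM. Slc18a2, the vesicular monoamine transporter, was at 54.9 CPM from 16 cells in E16, with 0 UMIs in the others.

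Of the progenitor list, 8 of 13 genes passed the minimum, of which 5 were 2-fold or more higher in E16 than E14 and 1 lower. The lower one was Sox2, at 505.8, 184.2 and 500.1 CPM. Ccnd1, a G1 cyclin, was at 168.5 CPM in postmitotic members labelled E16 from 21 cells, and had 0 UMIs in the others. It passed the minimum through E16 alone. Gsx2, a lateral eminence progenitor gene, was at 35.3 CPM from 6 cells, and again at 0 elsewhere. Vim, an intermediate filament of progenitors, was at 30.9, 656.5 and 154.7 CPM, though 20 of the UMIs in E18 came from its deepest cell, of 21822 UMIs. Outside that list, Rbfox3, a marker of mature neurons, was at 84.9, 0 and 57.6 CPM, and Nfib, of the stage list, at 1039, 68.6 and 273.4 CPM. Excitatory-type cells had Nfib at 1686, 1654 and 2724 CPM.

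**Figure D3:**
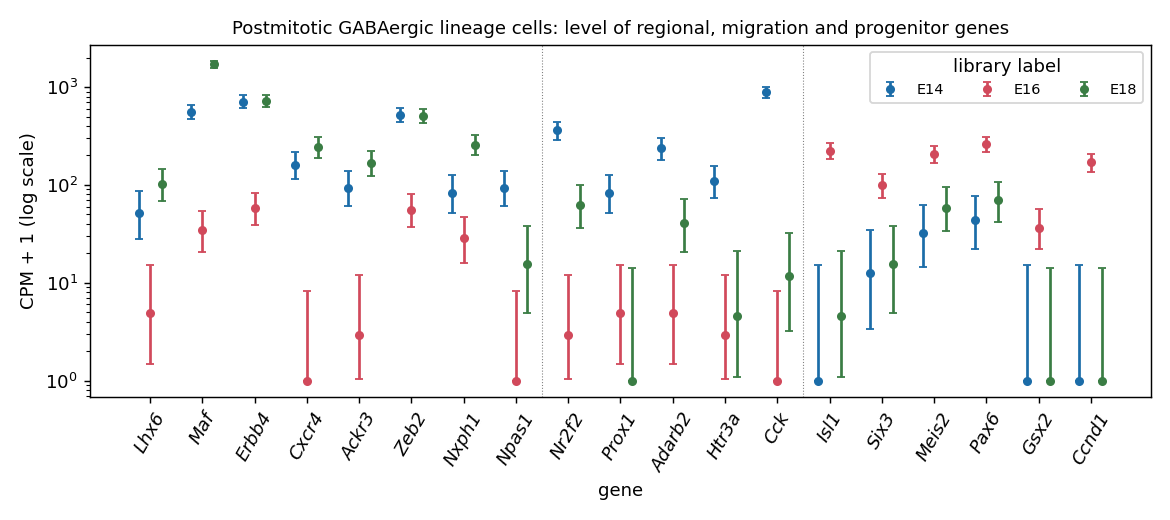
Level of interneuron and migration genes (left), caudal eminence genes and Cck (middle) and lateral eminence, striatal and progenitor genes (right) in postmitotic members of each library, as CPM + 1 on a log axis with exact Poisson 95% intervals (counting error only). Points at 1 had 0 UMIs, as Cxcr4 and Cck did in E16 and Isl1 in E14.

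Shares of cells with a UMI were compared at equal depth. With each cell thinned to 2000 UMIs, Erbb4 was found in 59.5% of postmitotic members in E14 (43.3% to 74.4%), in 4.76% in E16 (0.993% to 13.3%) and in 67.4% in E18 (52.0% to 80.5%). Without thinning the shares were 92.9%, 20.6% and 89.1% at median depths of 6164, 7265 and 5747.5 UMIs. Thinned excitatory-type cells, which should lack it and whose share stands for the background, had it in 0.613%, 0.821% and 0.306%, at median depths of 11075, 8979.5 and 9059. Isl1 was found in 0%, 30.2% (19.2% to 43.0%) and 2.17% of thinned postmitotic members, and in 0%, 52.4% and 2.17% without thinning. Lhx6 was found in 11.9%, 0% and 19.6% of thinned cells, with intervals of E14 and E16 that overlapped (3.98% to 25.6% and 0% to 5.69%). Excitatory-type cells labelled E14 had a thinned Lhx6 share of 0.195%.

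To see the cells one by one, UMIs were summed over 8 interneuron genes (Lhx6, Maf, Zeb2, Erbb4, Cxcr4, Ackr3, Npas1, Nxph1) and 7 striatal and septal genes (Isl1, Six3, Meis2, Ebf1, Foxp2, Zfp503, Gsx2). Both sets were chosen after the values were seen and are a description. They left out list genes with another pattern, such as Sox6 (1.37 on the log2 scale in E16 over E14) and Foxp1, which was highest in E14. Zeb2, of the first set, was also at 249.7, 266.8 and 338.3 CPM in excitatory-type cells. The split of cells is thus in part built in by the choice of genes. The first sum exceeded the second in 40 of 42 postmitotic members labelled E14, 7 of 63 labelled E16 and 42 of 46 labelled E18. Its median was 13.5, 0 and 23 UMIs per cell, and that of the second 0, 4 and 0. In E16, 2 cells had 15 UMIs of the first set and none of the second, and 6 cells had neither.

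**Figure D4:**
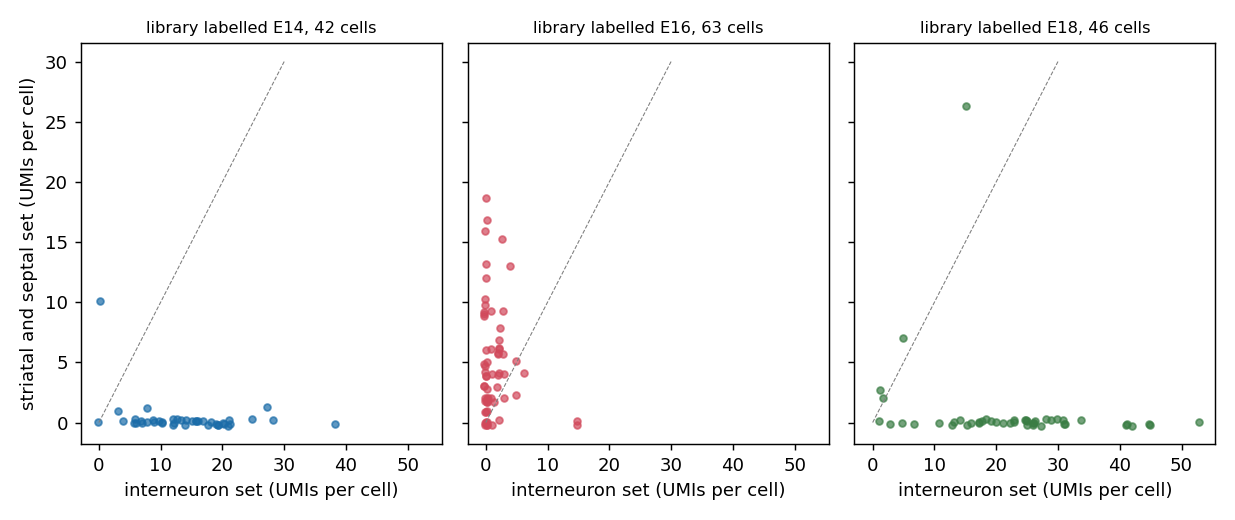
UMIs of 8 interneuron genes (horizontal) against UMIs of 7 striatal and septal genes (vertical) in each postmitotic member, 1 panel per library, points spread by up to 0.3 UMI, with a dashed line of equality. Of the cells labelled E14 and E18, 40 of 42 and 42 of 46 lie below the line, and 49 of 63 labelled E16 lie above it. The genes were chosen after the values were seen, so the split is in part built in.

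Cycling members came mostly from the library labelled E16. They were set against cycling pallial cells of the same library by the same test, over sums of 3, 36 and 2 members in label order. Of 9307 genes, 118 were higher (1.27%) and 70 lower (0.752%) by edgeR, and 61 and 9 by DESeq2. With so few cells from E14 and E18, values in those libraries rest on few cells. Of the lists, 4 of 6 tested GABAergic regulators were higher, as were 2 of 5 medial eminence and interneuron genes and 3 of 5 migration genes. So was 1 of 7 lateral eminence and striatal genes, whose median log2 fold was -0.52. Several of these calls rest on 1 library. Maf and Erbb4 were not called without that labelled E18 (edgeR adjusted p = 0.142 and 0.999). Pbx3, Zeb2 and Robo1 were not called without that labelled E16 (edgeR adjusted p = 0.999, 0.262 and 0.982), and Robo1 turned to -1.05 on the log2 scale. In E16, 7 of the 36 cycling members had a high doublet score, and 1 had 78041 UMIs. In E18, 1 of the 2 had a high doublet score, and that cell held most of the E18 sum, which was 33617 UMIs with it and 7565 without. With cells of high doublet score left out of both classes, 118 genes were higher, 85 of them shared, and 66 lower, 44 of them shared.

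Dlx6 was at 21.6, 72.3 and 29.7 CPM from 1, 16 and 1 cells, against at most 0.0710 CPM, higher by 9.88 ± 1.08.

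Several genes that young neurons express were among those called higher, and no list of such genes was tested. Stmn2, a microtubule regulator of young neurons, was at 864.8, 1214 and 1249 CPM against 90.7, 26.2 and 23.6 CPM, a log2 fold of 4.70 ± 0.32 (edgeR adjusted p = 5.78e-46). Dcx was at 129.7, 173.1 and 386.7 CPM from 1, 28 and 2 cells and higher by 3.49 ± 0.38, and Ina, a neuronal intermediate filament, by 4.14 ± 0.38. The 9 S phase and mitosis genes had a median log2 fold of -0.07, against -0.14 over all genes tested. Cenpf, for example, was at 913.3 CPM in cycling members labelled E16 and 776.4 in cycling pallial cells.

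Cycling pallial cells were chosen by Emx1, Emx2 and Eomes, so lower pallial genes in cycling members follow in part from that choice. Of the pallial list, 3 of 8 tested genes were lower in cycling members. Of these, Fezf2 lost its call by DESeq2 (adjusted p = 0.209) and without the library labelled E16 (edgeR adjusted p = 0.716), and Lhx2 without that labelled E14 or E16 (edgeR adjusted p = 0.0741 and 0.0656). Of the progenitor list 4 of 13 were lower and 1, Dll3, higher, a call lost without the library labelled E16 (edgeR adjusted p = 0.269). Neurog2, the proneural factor of the pallium, was at 43.2, 7.61 and 0 CPM in cycling members against 187.8, 146.5 and 135.1 CPM, and fell by 3.90 ± 0.55 on the log2 scale (edgeR adjusted p = 9.66e-10). Fabp7, a lipid-binding protein of radial glia, was at 345.9, 169.3 and 208.2 CPM against 2052, 446.6 and 643.9 CPM, a log2 fold of -2.0 ± 0.31 (edgeR adjusted p = 2.89e-08). Hopx, also of radial glia, fell by 2.64 ± 0.42. Slc1a3, Hes1 and Vim were lower too, and each lost its call without the library labelled E14 (edgeR adjusted p = 0.268, 0.151 and 0.999) and by DESeq2 (adjusted p = 0.211, 0.505 and 0.537). Hes1 and Vim also lost it without the library labelled E16 (edgeR adjusted p = 0.757 and 0.105).

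Regional genes were found unevenly in the cycling members labelled E16. Isl1 had UMIs in 21 of 36 cells at 125.6 CPM, Gsx2 in 12 at 55.2 CPM and Six3 in 12 at 59.0 CPM, while Lhx6, Erbb4 and Maf had UMIs in 1, 2 and 2 cells. Zeb2, of the interneuron list, had UMIs in 21 cells and Meis2 in 24. Of the cells with Isl1, 8 had Six3. Slc32a1 was at 30.4 CPM in cycling and 70.6 CPM in postmitotic members, and Gad1 at 22.8 and 82.3 CPM. Ttr, a choroid plexus gene, was at 3659 CPM in cycling members from 6 of 36 cells, with 1917 of 1923 UMIs in 1 cell, and cycling pallial cells of that library had it at 531.4 CPM. In E14, 2 of 3 cycling members had Olig1 and Olig2, genes of oligodendrocyte precursors, at 432.4 and 259.4 CPM. The part of these markers in the results was not tested.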

How the data were processed

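Raw UMI counts per gene and barcode were deposited by the authors for 3 libraries, made with Cell Ranger 6.0.1 per the file headers, on the rat build mRatBN7.2 per the submitters' processing notes. From these counts, cells and classes were chosen by the rules given in the results. The members and gene lists were chosen with earlier results of these data known. The named genes are the list genes and, outside the lists, the 8 highest and 8 lowest folds in each test with the same sign in all 3 libraries and at least 50 CPM, and the 6 highest and lowest ratios for each pair of libraries. Counts were summed per class and library and tested with edgeR 4.0.16 (TMM, filterByExpr, library as a block, Benjamini-Hochberg adjustment), with DESeq2 1.42.0 as an alternative. The block pairs classes of the same library. The p-values rest on class differences over 3 libraries, and edgeR shares the estimate of their spread across genes. A p-value is thus no measure of how a single gene varied over the libraries. This holds most for cycling members, with 3 and 2 cells in the libraries labelled E14 and E18. Each label has 1 library, so labels were compared with no test, by counting intervals. The library totals were 62740631, 80974234 and 73727823 UMIs. Doublet scores were computed with Scanpy 1.11.5 (Scrublet), whose own threshold marked 0.0385% of the cells labelled E16, so the highest scores (0.8% per 1000 cells) were removed only as an alternative. The test was checked on simulated data. Some list genes are counted with their list but not reported here.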

Additional observations from a re-analysis of the deposited data

Results flagged for a closer look

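For 8 list genes, postmitotic members lay 2-fold or more above excitatory-type cells in some library and 2-fold or more below them in another, with Poisson intervals apart. Further list genes changed side without passing this rule. The differences between libraries were not tested, since each label has 1 library. Zeb2 was at 521.25, 54.9 and 503.7 CPM in members of the libraries labelled E14, E16 and E18, against 249.7, 266.8 and 338.3 CPM in excitatory-type cells. Meis2 went the other way, at 30.9, 205.8 and 57.6 CPM against 180.9, 63.6 and 200.3 CPM. Nr2f1 was at 293.4, 25.5 and 190.7 CPM against 143.4, 209.1 and 141.5 CPM. Nr2f2 was at 359.1, 1.96 and 61.2 CPM against 31.1, 115.0 and 32.8 CPM. Cxcr4 was at 158.3, 0 and 241.1 CPM against 1.90, 17.9 and 5.31 CPM. Ackr3 was at 92.7, 1.96 and 165.5 CPM against 3.10, 24.4 and 44.1 CPM. Calb1 was at 11.6, 0 and 28.8 CPM against 0.452, 184.6 and 6.49 CPM. Cck was at 880.3, 0 and 10.8 CPM against 36.0, 12.3 and 9.31 CPM.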

How the results depend on the processing

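The count of genes higher in postmitotic members was 102. It was 160 by DESeq2 (100 shared with the 102), 316 with no filter on low counts (102 shared), 55 with no library block, that is no replicate block (54 shared), and 35 to 320 without 1 library. The count of lower genes was 185, and 497 with no filter, 66 with no library block and 84 to 581 without 1 library. Without the library labelled E16 more genes were tested (12870). In cycling members 118 genes were higher, and 61 by DESeq2, 276 with no filter, 44 with no library block and 33 to 145 without 1 library. There 70 were lower, and 9 by DESeq2, 2 with no library block and 30 to 79 without 1 library. The share of members was 0.545%, 1.00% and 0.0360% (E14, E16, E18) at 5% mitochondrial counts and 0.585%, 1.19% and 0.334% with at least 3 rule genes. It was 0.585% in E14 with no UMI of Neurod2 and Neurod6. In E16 and E18 it was 2.77% and 1.27% with at least 1 UMI of a rule gene and 1.43% and 0.596% at 4000 UMIs. With LOC100912227, an alternative chosen after seeing the data, it was 1.23% in E18. The cycling share was 47.5% in E16 with at least 1 UMI of Top2a and Mki67, and 0% in E18 at 4000 UMIs. Robo1 in cycling members ranged from -1.05 to 2.40 on the log2 scale without 1 library, the lowest without that labelled E16 (edgeR adjusted p = 0.982). The lateral eminence and striatal median of E18 over E14 was 1.22 as a log2 ratio of CPM + 1 and 0.61 at the floor. The first value turned to -0.72 with at least 3 rule genes and -0.038 without the deepest cell, also added after seeing the data. The cause was not tested. The next counts cover only called genes of the lists and markers, those with the largest folds and the unnamed loci, once per alternative. Direction and call were kept 443 times and the call lost 54 times in postmitotic members, and 268 and 86 times in cycling members. Over all called genes fewer were kept. Without the library labelled E14, 33 of the 102 higher and 71 of the 185 lower in postmitotic members were shared. Members number 42, 63 and 46 postmitotic cells, so genes under 11.6, 5.88 and 10.8 CPM are at or under 3 UMIs.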
